A study of Mus musculus with 15 samples.

Results

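The 10 genes described here encode enzymes that store, make and break down retinoids, the vitamin A family: *Lrat*, *Dhrs3*, *Rdh10*, *Rdh11*, *Rdh12*, *Adh1*, *Aldh1a1*, *Aldh1a2*, *Aldh1a3* and *Cyp26a1*. They were taken as the rows of the deposited expression matrix whose Ensembl identifiers carry these symbols, and all 10 were found among the 16729 genes of the matrix. The samples were epithelial organoids grown from mouse endometrium, 3-dimensional cultures of uterine epithelial cells in a basement membrane gel, and their RNA was sequenced in 15 libraries. Organoids of the genotype Smad2flox/flox; Smad3flox/flox served as controls and were grown with the vehicle DMSO (control + vehicle, n = 3) or with 500 nM A83-01, an inhibitor of the activin and TGFβ type I receptors ALK4, ALK5 and ALK7 (control + A83-01, n = 4). Organoids of the genotype Smad2flox/flox; Smad3flox/flox-Ltfcre/+ were grown with DMSO (*Smad2/3* cKO, n = 4) or with 500 nM A83-01 (*Smad2/3* cKO + A83-01, n = 4). Both floxed alleles were thus present in every sample, and the groups differed in the Ltf-cre allele and in A83-01.

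Several features limit the groups as models. Ltf-cre is driven by the lactoferrin gene, active in adult uterine epithelium, and was induced with estradiol at weaning, so deletion took place in the animal and not in the dish. The culture medium held EGF, FGF-10, HGF and conditioned WNT3a, R-spondin and noggin media in every group, and its B-27 supplement was free of vitamin A. The mice were adult by the study's general statement. Samples within each group other than *Smad2/3* cKO + A83-01 came from different mice, per the study's methods, which do not speak of that group, while organoids of 1 genotype grown with and without A83-01 may share a mouse. The passage at which RNA was taken is not given in the sources used here. Values are normalized counts, that is, estimated reads per gene divided by a factor for each library, and they summed to between 20241771 and 24423127 per sample. In a bulk sample, fewer cells of a type and less RNA per cell cannot be told apart.

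Retinol taken up by a cell is either stored as a retinyl ester, a step made by LRAT, or oxidized to retinaldehyde by retinol dehydrogenases such as RDH10. Retinaldehyde is then oxidized to retinoic acid by the ALDH1A enzymes, or returned to retinol by reductases such as DHRS3, and retinoic acid acts through nuclear receptors until CYP26 enzymes break it down. In the uterus retinoic acid signaling is known for its part in the growth of the Müllerian duct and in the response of the stroma to the embryo.

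The libraries were checked before the values were compared. The mean level of *Smad2*, in normalized counts, was 1171 ± 149 (SD, n = 3) for control + vehicle, 982 ± 61.6 (SD, n = 4) for control + A83-01, 875 ± 43.8 (SD, n = 4) for *Smad2/3* cKO and 921 ± 195 (SD, n = 4) for *Smad2/3* cKO + A83-01. *Smad3* was at 1624 ± 107, 1373 ± 559, 1576 ± 333 and 1448 ± 435 in the same order. Neither gene passed the thresholds in any comparison of 2 groups, and since the values sum over whole genes, the floxed exons could not be looked at and the genotype labels were not checked by them. Epithelial keratins were abundant in every sample, and the summed level of the 6 epithelial markers ran from 240842 to 309429 in control + vehicle, from 153452 to 265255 in control + A83-01, from 121653 to 228701 in *Smad2/3* cKO and from 120018 to 185979 in *Smad2/3* cKO + A83-01, with *Krt7* the most abundant.

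Stromal, smooth muscle and endothelial markers were scarce, while leukocyte and mesothelial markers were measured in every sample. The 8 stromal markers in the matrix summed to between 37.0 and 203 in control + vehicle and to between 4.79 and 136 in the other groups, *Col1a2* was the most abundant, and *Lum*, a defining stromal gene, was listed at 0 in 12 of 15 samples. *Smad2/3* cKO replicate 2 stood apart: the macrophage genes *Lyz2* and *Adgre1* were at 3372 and 351 there, while no other sample exceeded 86.9 for *Lyz2* or 9.01 for *Adgre1*. Without this library, 7 enzyme genes passed the thresholds in *Smad2/3* cKO vs. control + vehicle in place of 8, the gene lost was *Dhrs3*, and 652 genes in all passed in place of 970. *Ptprc*, the pan-leukocyte gene, ran from 12.5 to 38.5 in control + vehicle and from 68.5 to 514 in the other 12 samples, and *Cd68* was the most abundant of the 4 leukocyte markers, whose sum ran from 1257 to 2554 in control + vehicle and from 1950 to 8350 elsewhere. *Msln*, a mesothelial and epithelial gene, made up most of the mesothelial sum, which ran from 10634 to 31301 in control + vehicle. For *Smad2/3* cKO + A83-01 this sum was 1612 to 6740, for control + A83-01 9836 to 17108, and for *Smad2/3* cKO 2367 to 12308. Leaving out *Msln*, it was 20.4 to 195 in control + vehicle and 28.0 to 248 elsewhere. Neither of the 2 mesothelial markers was called in a comparison with control + vehicle. The part of these markers in the results below was not tested.

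Of the 6 epithelial markers tested, 2 fell with both interventions (11.7% of all genes were called there) and none was called with either alone, and of the 4 luminal markers tested 1 fell with both and none with either alone. With both interventions against control + vehicle the keratin genes *Krt8* (log2 fold change −1.37, adjusted p = 0.00680) and *Krt19* (−1.62, adjusted p = 0.00602) and the luminal epithelial gene *Wnt7a* (−2.54, adjusted p = 0.00311) fell, and *Ptprc* (3.40, adjusted p = 0.00233) and *Cd68* (1.51, adjusted p = 0.00502) rose while *Lyz2* fell (−3.89, adjusted p = 0.00802, limma). *Ptprc* also rose with the deletion alone (3.33, adjusted p = 0.00228), where the smooth muscle gene *Acta2* fell (−3.12, adjusted p = 0.00841) from a control + vehicle level of 53.6 to 176. *Prss29*, a gland protease gene, was listed at 0 in all 3 control + vehicle samples, ran from 16.3 to 7875 elsewhere, and was called higher in each comparison with control + vehicle. It was the 1 gland marker called of 5 tested with A83-01 alone (2.27% of all genes called), of 5 with the deletion alone (7.38%) and of 6 with both (11.7%), and *Lif*, of the same list, was at 1166 to 1824 in control + vehicle and 853 to 1146 with both. The summed gland markers, led by *Sox9*, ran from 4246 to 4476 in control + vehicle and from 2611 to 11271 elsewhere, and the endothelial markers reached no more than 27.6, with *Cdh5* the most abundant.

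Of the 10 enzyme genes, 7 had their lowest mean log2 value in control + vehicle and their highest in *Smad2/3* cKO + A83-01 (*Lrat*, *Dhrs3*, *Rdh11*, *Rdh12*, *Adh1*, *Aldh1a2* and *Cyp26a1*). The other 3, *Rdh10*, *Aldh1a1* and *Aldh1a3*, were highest in control + vehicle. The plot of the enzyme genes by sample shows this arrangement. A gene passed the test when limma gave an adjusted p below 0.01 over all genes with a mean of at least 10 and a change of more than 1.4-fold in either direction. The thresholds are those of the study, and fold changes are on the log2(normalized count + 1) scale, which understates the change of low genes.

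**Figure D1:**
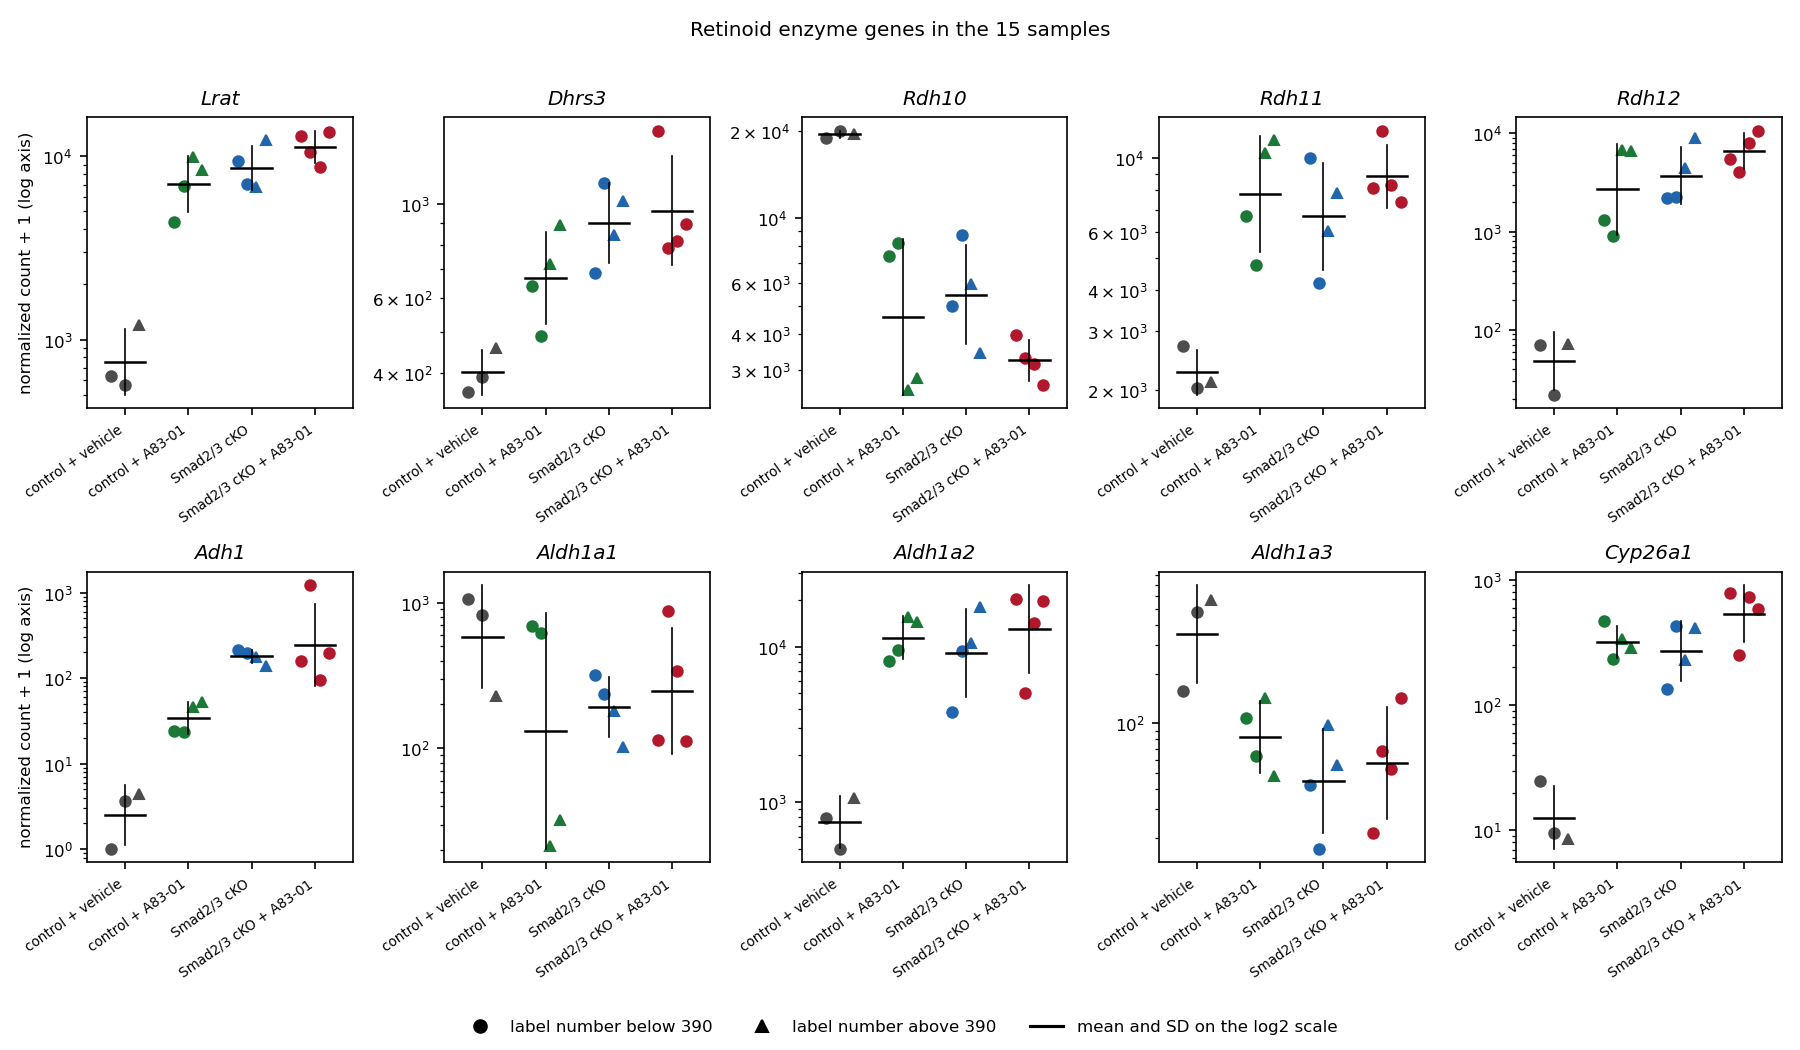
Normalized count + 1 (log axis) of the 10 enzyme genes in each of the 15 samples, by group. Circles are samples with a label number below 390, triangles those above it, and black lines give the mean and SD on the log2 scale. For *Lrat*, the 3 control + vehicle samples lie between 561 and 1202 and the other 12 samples at 4356 or above.

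With both interventions against neither, *Smad2/3* cKO + A83-01 vs. control + vehicle, 7 of the 10 genes rose and *Rdh10* fell, and in this comparison 6.10% of the 13097 genes tested were called higher and 5.64% lower (11.7% in all). The samples of the groups did not overlap for 9 of the 10, all but *Aldh1a1*, against 33.0% of all genes, and 9 had an unadjusted p below 0.05, against 35.3%. The median log2 fold change of the 10 was 2.93, beside −0.01 over all genes. With A83-01 alone, in control + A83-01 vs. control + vehicle, 5 of the 10 were called, all higher (background 1.19% of 13009 genes higher, 1.08% lower and 2.27% in all). Without control + vehicle replicate 1 or 2 the count was 2, since *Lrat* (adjusted p = 0.0106 and 0.0101), *Rdh11* (0.0315 and 0.0539) and *Rdh12* (0.0166 and 0.0217) lost their calls, and it was 3 without control + vehicle replicate 3 or control + A83-01 replicate 4, with no filter on low values, or with eBayes without trend. These counts are from the fit that does not pair samples. With same-numbered replicates as a block and all samples kept, the same 5 passed (adjusted p = 0.000409 for *Lrat*, 0.00687 for *Rdh11* and 0.00102 for *Rdh12*, limma). Of the 10, 9 did not overlap (background 21.7%) and 9 had an unadjusted p below 0.05 (background 22.2%). With the deletion alone, *Smad2/3* cKO vs. control + vehicle, 7 were called higher and 1 lower (background 4.08% and 3.30% of 13149 genes, 7.38% in all). Of the 10, 9 did not overlap (background 30.8%) and all 10 had an unadjusted p below 0.05 (background 33.7%). These 3 comparisons share the same 3 control + vehicle samples, so their values are given side by side and not as independent evidence.

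*Lrat*, the enzyme gene of retinyl ester storage (ENSMUSG00000028003, chromosome 3, 82892579-82903973, minus strand, in GRCm38), had normalized counts of 632, 561 and 1202 in the control + vehicle samples. It was at 4356, 6878, 9918 and 8415 in control + A83-01. The deletion alone gave 9426, 7034, 6788 and 12248. The samples with A83-01, with the deletion or with both lay above all control + vehicle samples, and the 3 groups overlapped one another. With both interventions *Lrat* reached 12915, 10489, 8685 and 13546, and its log2 fold change relative to control + vehicle was 3.90 (SE 0.27, adjusted p = 2.59e-05, limma), or 14.9-fold. The group means rose in the order of no intervention, A83-01 alone, deletion alone and both. Only the differences from control + vehicle passed the thresholds.

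*Dhrs3* encodes a reductase that turns retinaldehyde back into retinol (chromosome 4, 144892827-144928209). It was at 359, 391 and 456 in control + vehicle, and at 638, 486, 719 and 888 in control + A83-01. The *Smad2/3* cKO samples were at 684, 1118, 845 and 1012, and those with A83-01 added at 1482, 786, 817 and 896. No sample of these 3 groups reached down into the control + vehicle range, but the shift was small beside that of *Lrat*. Its log2 fold change was 1.26 with both interventions (SE 0.24, adjusted p = 0.00469, limma) and 1.17 with the deletion (SE 0.20, adjusted p = 0.00510), whereas 0.74 with A83-01 alone did not pass (SE 0.23, adjusted p = 0.0987). Both calls were close to the threshold and were lost without control + vehicle replicate 1 or 2 (adjusted p between 0.0216 and 0.0258). The call with the deletion was also lost without *Smad2/3* cKO replicate 2 (0.0120) or 4 (0.0173), and the call with both without *Smad2/3* cKO + A83-01 replicate 4 (0.0138). With eBayes without trend neither call passed (0.0153 for the deletion, 0.0146 for both), nor with the replicate block (0.0257 and 0.0310). The call with both was lost as well with no filter on low values (0.0123) and with total scaling (0.01001).

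The retinol dehydrogenase genes moved in opposite directions. *Rdh10*, which encodes the main retinol dehydrogenase of the mouse embryo (chromosome 1, 16105774-16133734), was at 18882, 19939 and 19517 in control + vehicle, a narrow range. In control + A83-01 it was at 7433, 8196, 2574 and 2810, and in *Smad2/3* cKO at 4975, 8774, 5942 and 3428. The 4 *Smad2/3* cKO + A83-01 samples, at 3978, 3301, 3141 and 2679, were the tightest of the groups below it. All 12 samples with either intervention or both lay below the control + vehicle samples. *Rdh10* fell by 2.58 on the log2 scale with both interventions (SE 0.15, adjusted p = 1.19e-05, limma). For A83-01 alone the log2 fold change was −2.09 (SE 0.41, adjusted p = 0.0193), short of the threshold, but it passed with all 4 groups in 1 fit (adjusted p = 0.00260), with the range of the label numbers described below as a covariate (0.00597) and without control + A83-01 replicate 2 (0.00874).

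*Rdh11* and *Rdh12* encode related enzymes that interconvert retinol and retinaldehyde and are neighbours on chromosome 12. *Rdh11* lies at 79174337-79192293 on the minus strand and *Rdh12* at 79208914-79222665 on the plus strand, with 16620 bases between them, and the longest open reading frames of the pair were 69.3% identical. *Rdh12* was nearly silent in control + vehicle, at 69.8, 20.9 and 71.1. It was at 1317, 893, 6712 and 6658 in control + A83-01, where the 4 samples split into a lower and a higher pair. It was at 2187, 2233, 4404 and 8860 in *Smad2/3* cKO and at 5470, 4053, 8028 and 10627 in *Smad2/3* cKO + A83-01. Its log2 fold change with both interventions was 7.10 (SE 0.45, adjusted p = 1.82e-05, limma), or 137-fold. This was the highest fold change among the 10 genes in that comparison at a pseudocount of 1, while at 0.1 *Adh1* had a higher one, at 7.94 on the log2 scale.

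*Rdh11* started from a higher level and moved less. It was at 2702, 2017 and 2114 in control + vehicle and at 6675, 4758, 10372 and 11361 in control + A83-01. It was at 10014, 4211, 6025 and 7887 in *Smad2/3* cKO, and at 8120, 12126, 8309 and 7388 in *Smad2/3* cKO + A83-01. The groups other than control + vehicle overlapped throughout. With both interventions its log2 fold change was 1.96 (SE 0.19, adjusted p = 0.000152, limma). The call for A83-01 alone was marginal (log2 fold change 1.79, SE 0.30, adjusted p = 0.00933) and was lost without any 1 of 6 of the 7 libraries, with adjusted p up to 0.0539. These losses are from the fit without a block, and with same-numbered replicates as a block the call stood (adjusted p = 0.00687, limma).

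Read per kilobase of exon, as an approximate way to compare genes of unequal length, the retinol dehydrogenase genes changed places while the group mean of their sum changed little. The length used was that of all annotated exons of a gene merged, not that of the transcripts expressed. *Rdh10* made up 87.3% ± 2.14 (SD, n = 3) of the summed level of *Rdh10*, *Rdh11* and *Rdh12* in control + vehicle. Its share was 29.6% ± 22.3 in control + A83-01, 30.2% ± 16.0 in *Smad2/3* cKO and 13.9% ± 3.52 in *Smad2/3* cKO + A83-01 (SD, n = 4 each). *Rdh12* made up 0.340% ± 0.182 in control + vehicle and 40.6% ± 13.8 with both interventions, and *Rdh11* stood at 12.3% ± 2.03 and 45.5% (range 33.6% to 61.9%) in the same groups. The sum of the 3 genes was 5352 ± 29.0 normalized counts per kb in control + vehicle, 4975 ± 1260 in control + A83-01, 4915 ± 848 in *Smad2/3* cKO and 5762 ± 502 in *Smad2/3* cKO + A83-01. Single samples varied more outside control + vehicle: the sum ran from 5327 to 5384 there and from 3648 to 6208 in control + A83-01. It ran from 4081 to 6093 in *Smad2/3* cKO and from 5150 to 6364 with both interventions. Shares and sums are descriptions of transcript levels, and the enzymes differ in what they catalyse, so a similar sum is not a measure of similar activity.

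**Figure D2:**
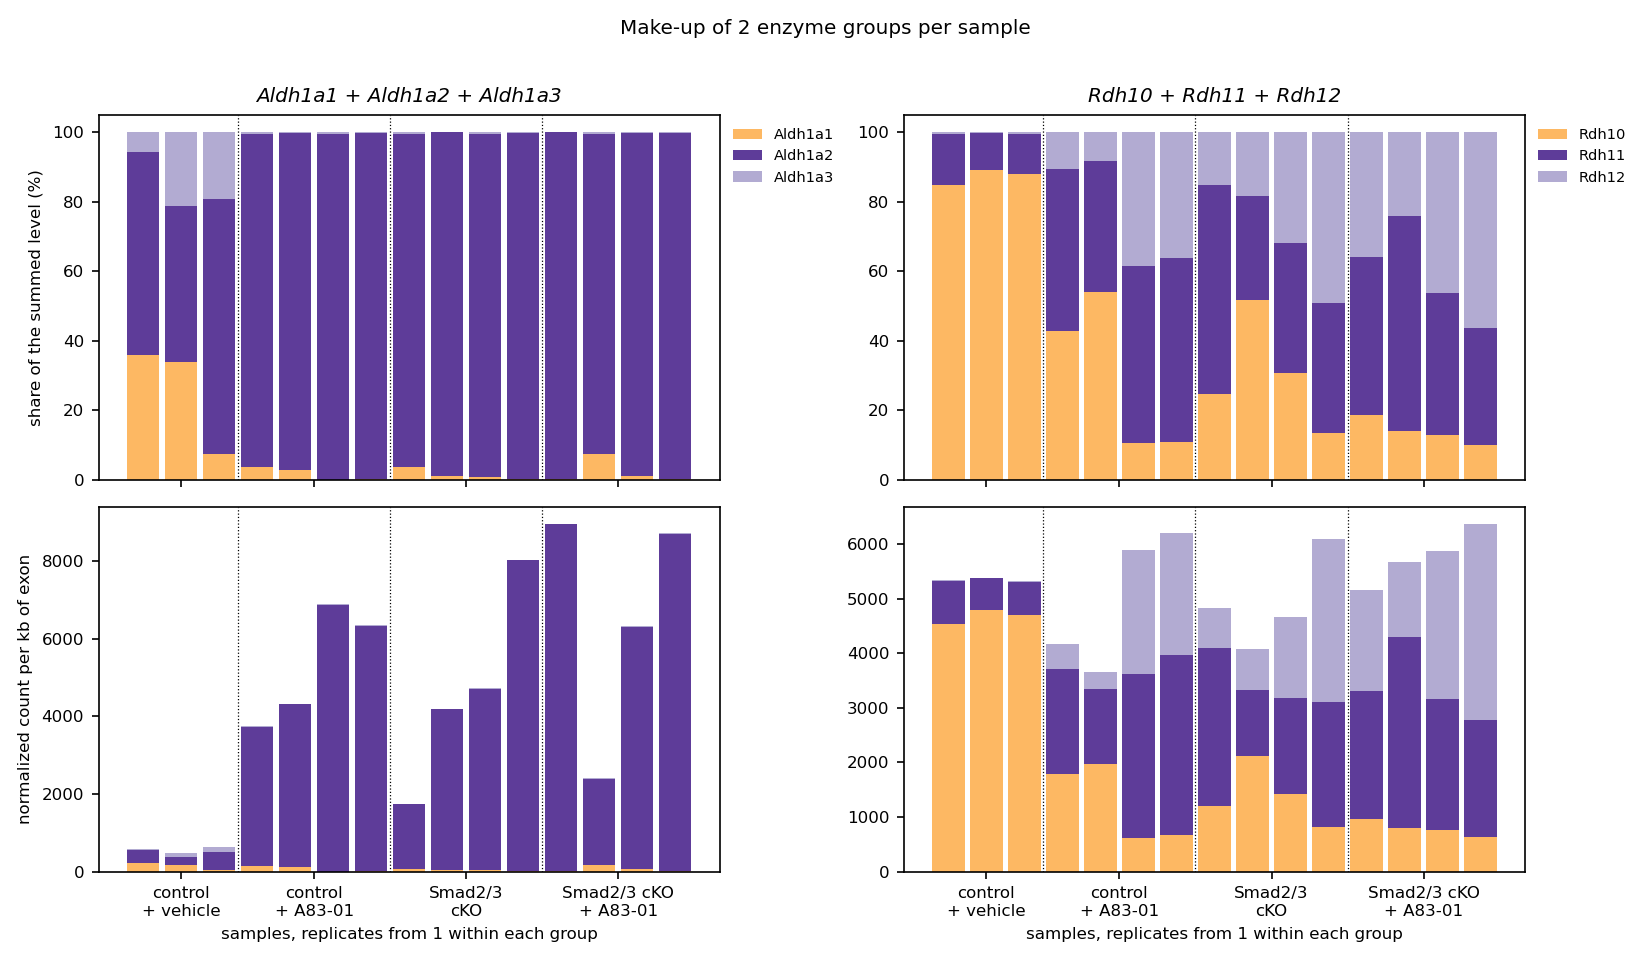
Share of the summed level (top, %) and level per kb of exon (bottom, normalized count) of the genes of 2 enzyme groups in each of the 15 samples, with replicates in order from 1 within each group. *Rdh10* makes up 84.9% to 89.0% of its group in control + vehicle and 10.1% to 54.0% in the other samples, and *Aldh1a2* 45.0% to 73.5% of its group in control + vehicle and at least 92.0% elsewhere.

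*Adh1*, which encodes an alcohol dehydrogenase that also oxidizes retinol, was at or near 0 in control + vehicle, at 0, 2.63 and 3.47. It was at 23.3, 22.3, 45.0 and 51.7 in control + A83-01. It was higher again in *Smad2/3* cKO, at 211, 197, 178 and 139. With both interventions it was at 157, 1222, 94.0 and 195, where replicate 2 lay far above the rest. *Adh1* was thus the 1 enzyme gene whose samples did not overlap between genotypes: all *Smad2/3* cKO samples, with or without A83-01, lay above all control + A83-01 samples. The log2 fold change was 2.39 for *Smad2/3* cKO vs. control + A83-01 (SE 0.36, adjusted p = 0.162, limma) and 2.84 for *Smad2/3* cKO + A83-01 vs. control + A83-01 (SE 0.71, adjusted p = 0.197), so neither passed the test, and 3.45% and 6.12% of all genes did not overlap in these comparisons. Against control + vehicle the log2 fold change was 6.15 with the deletion (SE 0.58, adjusted p = 0.000392) and 6.60 with both (SE 0.88, adjusted p = 0.000821). The size of the change rests on a control level of a few reads: the log2 fold change with the deletion was 3.99 with a pseudocount of 10 and 7.50 with 0.1.

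Of the retinaldehyde dehydrogenase genes, whose products make retinoic acid, 1 of the 3 passed the test. *Aldh1a2*, the gene that did (chromosome 9, 71215789-71296243), was at 785, 496 and 1056 in control + vehicle. It was at 8102, 9480, 15539 and 14326 in control + A83-01 and at 3779, 9373, 10579 and 18119 in *Smad2/3* cKO. Both interventions together gave 20208, 5012, 14133 and 19651. All 12 of these samples lay above the control + vehicle range. The log2 fold change with both interventions was 4.12 (SE 0.46, adjusted p = 0.000308, limma). Within the deletion groups the samples ran over a wide range, and the deletion call, at adjusted p = 0.00156, reached 0.0103 and 0.0104 without control + vehicle replicate 1 and 2.

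*Aldh1a3* (chromosome 7, 66390890-66427517) lay in the other direction, at 158, 475 and 562 in control + vehicle and at 107, 61.9, 142 and 46.5 in control + A83-01. It was at 41.1, 16.1, 96.7 and 55.1 in *Smad2/3* cKO and at 20.4, 67.0, 51.8 and 142 in *Smad2/3* cKO + A83-01. No sample with an intervention reached the control + vehicle range, yet no comparison passed the test, with log2 fold changes of −2.08, −2.97 and −2.60 against control + vehicle and adjusted p of 0.0498, 0.0124 and 0.0176 (limma). It passed as lower with the deletion at a pseudocount of 10 (adjusted p = 0.00978) and with all 4 groups in 1 fit (0.00681). It did so as well with the range of the label numbers described below as a covariate (0.00502) and without *Smad2/3* cKO replicate 3 (0.00779). With both interventions it passed under the replicate block (0.00343). That block rests on the replicate number alone: the label numbers differ there, and same-numbered replicates had a mean r of −0.061. *Aldh1a1* (chromosome 19, 20492715-20643465) overlapped in every comparison. It was at 1050, 815 and 229 in control + vehicle, at 691, 620, 20.4 and 31.4 in control + A83-01, at 316, 233, 179 and 102 in *Smad2/3* cKO and at 112, 876, 339 and 111 in *Smad2/3* cKO + A83-01. The longest open reading frame of *Aldh1a7* is 91.7% identical to that of *Aldh1a1*, so some reads of the pair could be hard to assign. The split between the 2 genes rests on the authors' quantification and was not tested. *Aldh1a7* itself had a level of 3.68 to 57.3.

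Per kb of exon, *Aldh1a2* made up 59.0% ± 14.3 (SD, n = 3) of the summed level of *Aldh1a1*, *Aldh1a2* and *Aldh1a3* in control + vehicle. The merged exons of the 3 genes span 4937, 2264 and 4617 bases in that order, and the shares depend on these lengths. Its share was 97.9% ± 2.02 in control + A83-01, 98.2% ± 1.67 in *Smad2/3* cKO and 97.5% ± 3.65 in *Smad2/3* cKO + A83-01 (SD, n = 4 each). Here the sum was higher as well, at 5328 ± 1529, 4675 ± 2591 and 6604 ± 3042 normalized counts per kb against 572 ± 76.2 in control + vehicle. Among the 10 enzyme genes, *Rdh10* had the highest level per kb in control + vehicle (4675 ± 128), and *Aldh1a2* had it in each of the other 3 groups. *Rdh11* was the next in all 4 groups, at 659 ± 107 in control + vehicle and at 2036 ± 721 to 2601 ± 617 elsewhere.

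*Cyp26a1* encodes the enzyme that breaks down retinoic acid, and its promoter is known to carry a retinoic acid response element. Its start region is shown because it was the 1 promoter among the enzyme genes that held the motif searched for. The 250 bases before its RefSeq start, on the plus strand of GRCm38.p6 at chr19:37697558-37697807, read 5′ to 3′ as follows, with the repeated hexamers in capitals.
Cyp26a1: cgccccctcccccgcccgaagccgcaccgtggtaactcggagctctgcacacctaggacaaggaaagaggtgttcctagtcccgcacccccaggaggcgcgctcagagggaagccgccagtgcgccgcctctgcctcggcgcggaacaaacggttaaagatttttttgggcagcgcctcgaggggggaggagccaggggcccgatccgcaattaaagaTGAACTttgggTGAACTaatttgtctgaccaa

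The capitals mark AGTTCA on the minus strand, repeated in the same direction with 5 bases between, from 32 to 16 bases before the start (37697776 to 37697792). The motif was a direct repeat with 5 bases between, on either strand, in which each hexamer could be AGGTCA, the usual form, or its relatives AGTTCA, as printed above, or GGGTCA and, as the last form allowed, GGTTCA, searched in windows from 250 bases before to 50 bases after each start. It was found in 32 of 32851 RefSeq windows, or 0.0974%, and in 1 of the 12 windows of the 8 enzyme genes that matched the table. Repeats with 1 or 2 bases between were found in 0.222% and 0.268% of all windows and in none of these 12. *Aldh1a3* and *Rdh10* had no window in the table. A match is a description of the letters and not a measure of binding.

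*Cyp26a1* (chromosome 19, 37697798-37701536) was at 23.6, 8.50 and 7.60 in control + vehicle. It was at 469, 232, 334 and 283 in control + A83-01 and at 133, 430, 227 and 412 in *Smad2/3* cKO. With both it was at 786, 250.4, 721 and 581, so that 3 of the 4 samples lay above every sample of the other groups. The log2 fold change against control + vehicle was 5.41 with both interventions (SE 0.50, adjusted p = 0.000117, limma), or 42.5-fold. It was 4.62 with a pseudocount of 10 and 5.53 with 0.1. Between *Smad2/3* cKO + A83-01 and *Smad2/3* cKO it was 0.98 (95% CI −0.01 to 1.98, adjusted p = 0.994), so the higher values of these 3 samples did not pass the test.

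Once either intervention was present, adding the other moved no enzyme gene past the thresholds in this test. For A83-01 added to organoids of the Ltf-cre genotype, *Smad2/3* cKO + A83-01 vs. *Smad2/3* cKO, none of the 10 was called (background 0.00%). Of the 10, 1, *Rdh10*, had an unadjusted p below 0.05 in limma, beside 4.26% of 12998 genes. No enzyme gene was without overlap between the groups, beside 2.90% of all genes. The log2 fold change of *Rdh10* was −0.75 (SE 0.25, 95% CI −1.32 to −0.19). *Lrat* had 0.38 (95% CI −0.09 to 0.86) and *Aldh1a2* 0.51 (95% CI −0.66 to 1.68), intervals that leave room for a modest rise. The signs were above 0 for 9 of the 10 genes, the median was 0.39, and the median over all genes was 0.00.

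The effect of deletion under A83-01, *Smad2/3* cKO + A83-01 vs. control + A83-01, gave no call among the 10 (background 0.0232%) and 2 genes with an unadjusted p below 0.05, *Adh1* and *Lrat* (9.52% of 12915 genes). *Lrat* had a log2 fold change of 0.67 (SE 0.25, 95% CI 0.10 to 1.24, adjusted p = 0.433, limma) and *Rdh12* 1.29 (SE 0.65, 95% CI −0.16 to 2.74). In *Smad2/3* cKO vs. control + A83-01, where deletion was set directly against inhibition, there was again no call (background 0.00%), and *Adh1* alone had an unadjusted p below 0.05 (6.36% of 12980 genes). The intervals were −0.33 to 0.90 for *Lrat*, −1.27 to 0.60 for *Aldh1a2*, −1.10 to 0.63 for *Cyp26a1* and −1.11 to 2.04 for *Rdh12*. For *Lrat* the interval held no difference of more than 2-fold, for *Aldh1a2* and *Cyp26a1* it held such a difference downward alone, and for *Rdh12* in both directions.

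**Figure D3:**
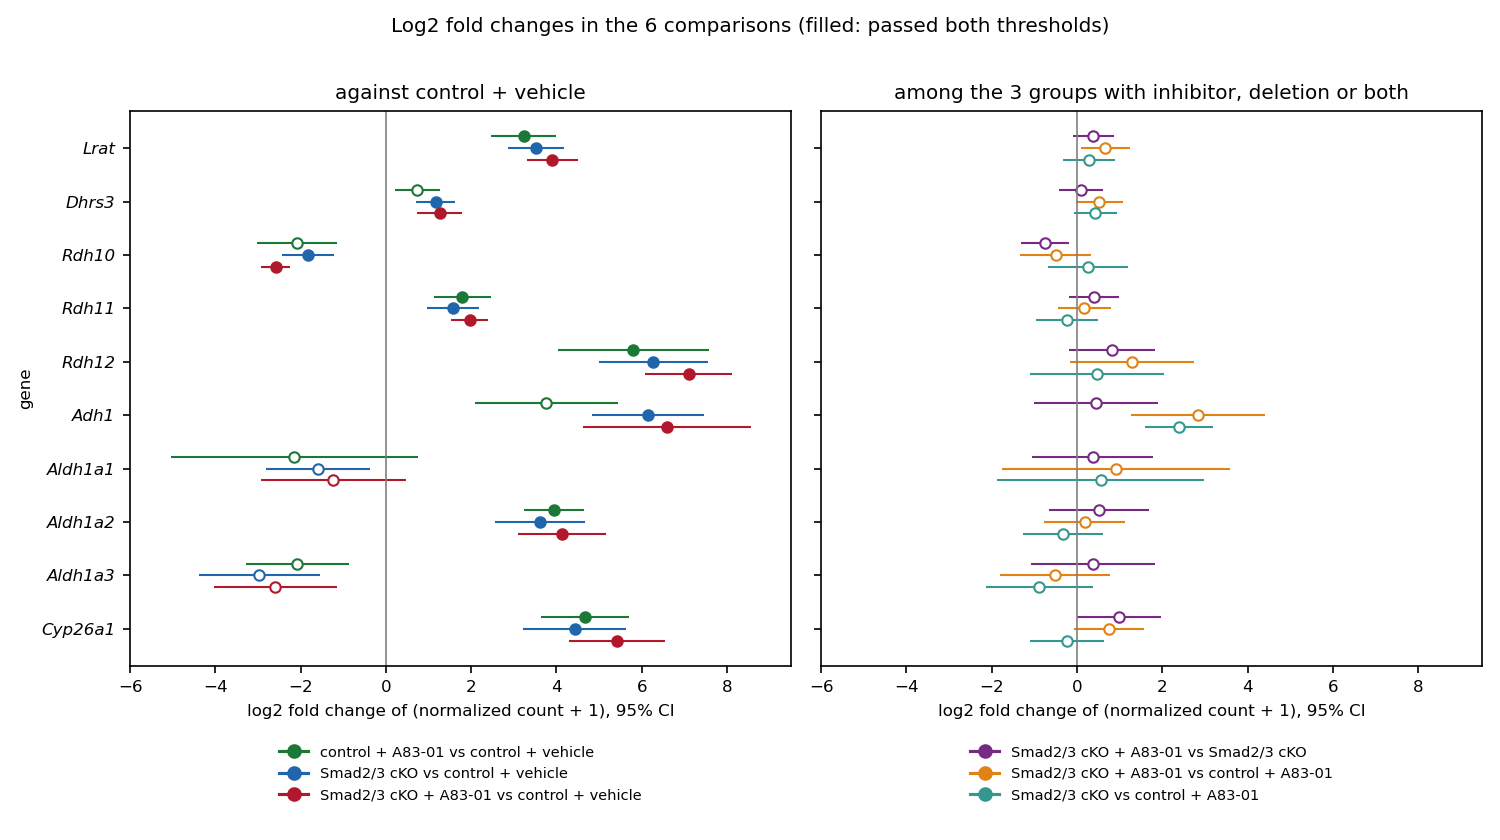
Log2 fold change of (normalized count + 1) with its 95% confidence interval for the 10 enzyme genes, in the 3 comparisons with control + vehicle (left) and the 3 comparisons among the other groups (right). Filled points passed both thresholds. On the left 7 genes lie above 0 and 3 below it in each comparison, and on the right no point is filled.

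The difference between the genotypes in the effect of A83-01 was tested in 1 fit over all 15 samples. *Lrat* passed: its A83-01 effect was 3.23 in control and 0.38 in *Smad2/3* cKO organoids on the log2 scale, a difference of −2.85 (SE 0.42, adjusted p = 0.00243, limma), and 0.452% of 13066 genes were called in that direction, 0.0995% in the other and 0.551% in all. The differences of *Cyp26a1* (−3.68, SE 0.67, adjusted p = 0.0110), *Rdh12* (−4.98, SE 0.97, adjusted p = 0.0167) and *Aldh1a2* (−3.43, SE 0.70, adjusted p = 0.0210) were larger in size but missed the threshold. *Rdh12* passed with the replicate number as a block (−4.62, adjusted p = 0.000811) and with the number in the sample labels, below or above 390, as a covariate (−3.80, adjusted p = 0.00951, limma). In the Ltf-cre genotype that block joins samples with and without A83-01 by replicate number alone, as their label numbers differ. Each of these 3 genes also passed without some single sample, with adjusted p from 0.00572 to 0.00667, and *Cyp26a1* with quantile normalization (0.00958). In all, 8 of the 10 genes had an unadjusted p below 0.05, beside 14.3% of all genes. The call for *Lrat* was lost without control + vehicle replicate 2 (−2.64, adjusted p = 0.0110).

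The sample labels carry a number, below 390 for 10 samples and above it for the other 5, and what it stands for is not stated. All *Smad2/3* cKO + A83-01 samples had numbers below 390, while the other 3 groups held both ranges. Within control + A83-01, the pairs above and below 390 did not overlap for 8 of the 10 enzyme genes, against 34.7% of all genes. The samples above 390 were lower by 4.64 on the log2 scale for *Aldh1a1* and by 1.54 for *Rdh10*, and higher by 2.62 for *Rdh12* and 0.95 for *Rdh11*. Within *Smad2/3* cKO 5 of 10 did not overlap, against 34.0% of genes, with *Rdh12* again higher (1.50) and *Aldh1a1* lower (1.00). *Aldh1a2* was also higher above 390 in both groups (0.77 and 1.22), *Adh1* was higher in control + A83-01 (1.05) and lower in *Smad2/3* cKO (−0.38), and the pairs of *Aldh1a3* were apart in *Smad2/3* cKO (1.46) and overlapped in control + A83-01.

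**Figure D4:**
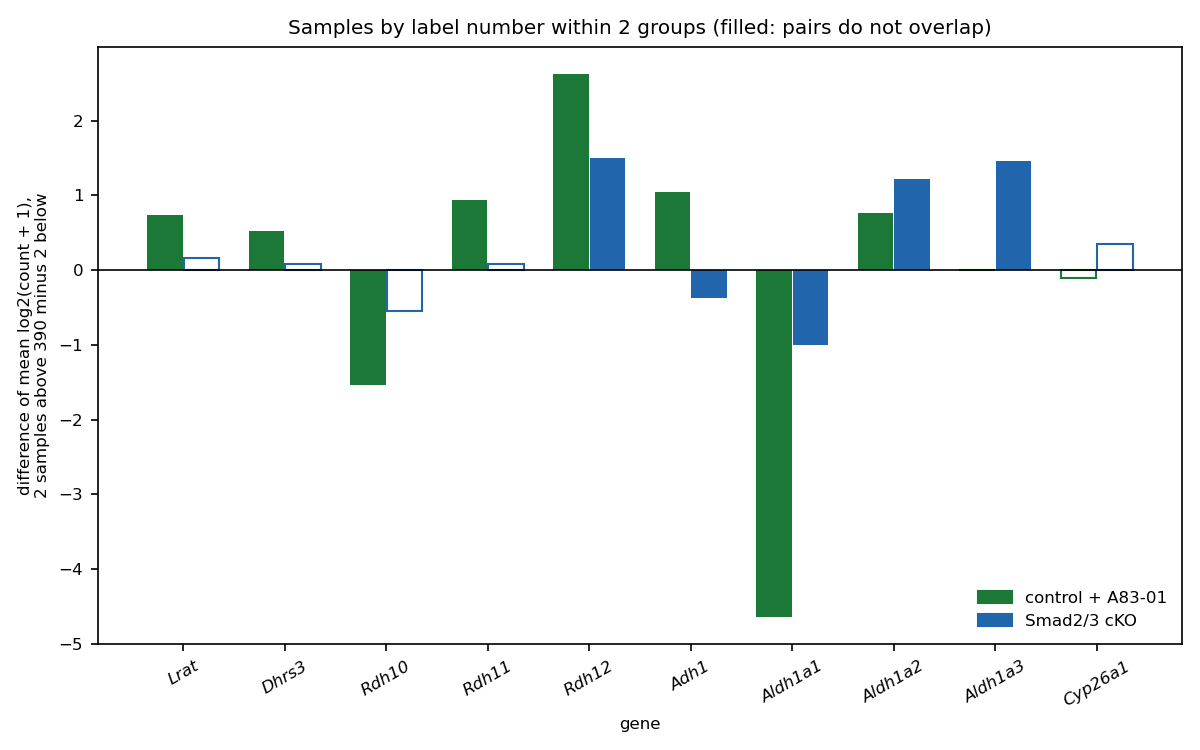
Difference in mean log2(normalized count + 1) between the 2 samples with label numbers above 390 and the 2 below it, within control + A83-01 and within *Smad2/3* cKO, for each enzyme gene. Filled bars mark pairs that do not overlap. *Aldh1a1* has the longest bar (−4.64, control + A83-01), followed by *Rdh12* (2.62).

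Comparisons were therefore repeated within each range of numbers. For *Lrat*, A83-01 in control organoids gave 3.20 below 390 and 2.92 above it, and for *Aldh1a2* 3.81 and 3.82, where the values above 390 rest on 1 control + vehicle sample. For *Rdh10* the values were −1.31 and −2.86, and for *Aldh1a1* −0.50 and −3.12. In the comparison of *Smad2/3* cKO + A83-01 with the 2 control + A83-01 samples below 390, *Rdh12* was higher by 2.60 and *Adh1* by 3.36, and with the number range as a covariate *Rdh12* passed the test there (adjusted p = 0.00769, limma), 1 of 72 genes that did. In *Smad2/3* cKO vs. control + A83-01 the sign differed between the ranges for some genes, and *Aldh1a1* was at −1.27 below 390 and 2.37 above it, *Rdh10* at −0.24 and 0.75, *Rdh11* at 0.20 and −0.65, and *Rdh12* at 1.03 and −0.10. The part of the number range in these results was not tested further.

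The other genes of the retinoid pathway were read against the same background, 2.27% of genes called with A83-01, 7.38% with the deletion and 11.7% with both. Of 24 other retinoid enzyme genes listed, 18 were in the matrix and 11 to 14 were tested in each comparison. None was called with A83-01 or the deletion alone, and 1 of 13, the retinol dehydrogenase gene *Dhrs9*, was called in *Smad2/3* cKO + A83-01 vs. control + vehicle (log2 fold change 1.38, SE 0.24, adjusted p = 0.00331, limma). Its values were 1079, 1006 and 598 in control + vehicle and ran from 1706 to 2671 with both interventions. The median log2 fold change of the list there was 0.34, beside −0.01 over all genes. *Dgat1* and *Retsat*, an acyltransferase that can esterify retinol and a retinol saturase, were not called.

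Among the binding and uptake genes, 4 of the 6 in the matrix were tested, and none passed with A83-01, 1 with the deletion and 3 with both interventions. *Fabp5*, a fatty acid and retinoic acid binding protein, rose with the deletion (1.76, adjusted p = 0.00404) and with both interventions (1.90, adjusted p = 0.000175), *Rbp4*, the retinol carrier, rose with both (2.97, adjusted p = 0.00618), and *Stra6*, the retinol uptake receptor, fell by 2.45 with both (adjusted p = 0.00316, limma). None of the 4 receptor genes tested was called, and *Rarb*, itself a target of retinoic acid, was at 23.8, 2.89 and 8.77 in control + vehicle and at no more than 1.93 in any other sample. Of 17 genes known to respond to retinoic acid, 12 were in the matrix and 7 or 8 were tested in each comparison. *Tgm2*, a transglutaminase, rose (1.33, adjusted p = 0.00410) and *Stra6* fell with both interventions, no gene of the list was called with either intervention alone, and the median was −0.11 with A83-01, −0.48 with the deletion and 0.16 with both.

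The genes whose pattern over the 15 samples was most like that of an enzyme gene were found by Pearson r of log2(normalized count + 1) over 13036 genes, as a description in which the group differences are part of every r. For *Lrat* they were 5330417C22Rik, *Hsd11b1* and *Sgpp2*, each with r of 0.985. For *Aldh1a2* they were *Ugt2b34* (0.985), *Sdccag8* (0.980) and *Paics* (0.979). *Cyp26a1* was most like *Snx24*, *Nucb2* and *Gmds* (each 0.965), *Rdh12* like *Ptpn5* (0.983), *Sntg2* (0.980) and *Lyplal1* (0.980), and *Rdh10* like *Sox4* (0.964), *Sprr2b* (0.962) and *Rabgef1* (0.961). *Hsd11b1*, which encodes an enzyme that activates glucocorticoids, went from a mean of 125 in control + vehicle to 23771 in *Smad2/3* cKO + A83-01, and *Sox4*, a transcription factor gene, from 3216 to 41.2. Among the enzyme genes themselves, r over the 15 samples was 0.963 for *Lrat* and *Rdh12* and −0.947 for *Rdh10* and *Rdh12*.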

How the data were processed

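RNA of the organoids was made into libraries with SMART-Seq v4, a kit that does not keep strand, and quantified by the authors with Salmon 1.4.0 on GRCm39. The deposited values, of the unit called signal here, are DESeq2 1.32.0 normalized counts per Ensembl gene: their median ratio to the geometric mean was 1.01 in every sample, and they are not whole. Only 6.60% to 14.9% of values below 12 were whole multiples (tolerance 0.01) of the smallest step, so reads were not recovered, the depth behind each value is unknown, and no count model was used. The values summed to 20241771 to 24423127 per sample. Symbols and gene positions came from GENCODE M21 (GRCm38), which matched 16697 of 16729 identifiers.

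Genes with a mean of at least 10 were tested in the samples compared with limma 3.58.1 (R 4.3.3) on log2(normalized count + 1), lmFit and eBayes with trend, with Benjamini-Hochberg adjustment over all genes tested. Only the groups compared entered each fit, and all 15 samples entered the test of the difference between genotypes. The tests were tested on simulated data, whose outcome is not reported here and is not used as support. Same-numbered replicates of control + A83-01 and control + vehicle deviated together (r of 0.354 to 0.423 in 3 pairs, a mean of −0.133 for other pairs), and since their label numbers are also the same they were taken as pairs. Since r averages near 0 over all pairs, the negative mean of the other pairs adds no support. Control + A83-01 replicate 4 (number 396) and control + vehicle replicate 3 (395) also had r = 0.347. The number 367 is carried by a *Smad2/3* cKO sample too, so a shared number does not by itself identify a mouse. The values reported are from the fit without the block, and the fit with it is given as an alternative. In the other comparisons at least 1 pair had r below 0.1. Samples within each group other than *Smad2/3* cKO + A83-01 came from different mice per the study's methods, so p-values measure the spread between mice, cultures and libraries together. For *Smad2/3* cKO + A83-01 the labels give a replicate and a number of unstated meaning, and tie no sample to a mouse.

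Named were the 10 enzyme genes, *Smad2* and *Smad3*, listed genes that passed in any comparison, the most abundant gene of each marker list and those at 0, and the 3 genes most like each of 5 enzyme genes. *Dgat1*, *Retsat*, *Aldh1a7*, *Rarb*, *Lif* and *Adgre1* were added after their values were seen. The summed level of the luminal markers is not reported here. The enzyme genes and all lists were chosen with earlier results of these data known. Alternatives were other pseudocounts (0.1, 10), filters (none, 50), quantile and total scaling, no trend, all groups in 1 fit, a replicate block, the number range as a covariate, an adjusted p of 0.05 and leaving out each sample.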

Additional observations from a re-analysis of the deposited data

Results flagged for a closer look

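In 30 groups of 4 samples tested (10 enzyme genes in 3 groups), 2 samples lay farther from the rest than Dixon's 95% limit, and chance flags about 1 in 20 groups. *Smad2/3* cKO + A83-01 replicate 1 stood out for *Dhrs3*, at 1482 normalized counts, where the other 3 samples of the group ran from 786 to 896. *Smad2/3* cKO + A83-01 replicate 2 stood out for *Adh1*, at 1222, where the others ran from 94.0 to 195. The effect of A83-01 on *Lrat* differed between the genotypes by −2.85 on the log2 scale, in a test of the difference itself.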

How the results depend on the processing

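Of 1359 recomputed log2 fold changes of the 10 enzyme genes, 1272 kept their direction and their side of the thresholds, 44 lost a call, 26 gained one and 17 changed sign. *Adh1* had no value in control + A83-01 vs. control + vehicle under a mean of at least 50. For control + A83-01 vs. control + vehicle (295 genes, 5 enzyme genes), 146 and 3 passed with no filter on low values, 3 enzyme genes with eBayes without trend, 655 genes with all 4 groups in 1 fit, 443 with the number range as a covariate, and 955 and 8 at an adjusted p of 0.05. For *Smad2/3* cKO vs. control + vehicle (970 and 8), 452 and 5 passed without trend and 2413 genes at 0.05. For *Smad2/3* cKO + A83-01 vs. control + A83-01 (3 and 0), 0 genes passed with no filter, 1 without trend, 5 with all groups in 1 fit, and 72 and 1 with the number range. For *Smad2/3* cKO + A83-01 vs. control + vehicle (1538 and 8), 2930 genes passed at 0.05. For the difference between genotypes (72 and 1), 2 enzyme genes passed with quantile normalization, 2 with the number range, and 208 genes and 4 enzyme genes at 0.05. With the replicate block, the count for the paired comparison of control organoids was 399 genes and the same 5 enzyme genes passed. In the others, whose samples share only a number, the replicate block left 211 and 5 for *Smad2/3* cKO, 568 genes for both interventions vs. control + vehicle, 0 genes for *Smad2/3* cKO + A83-01 vs. control + A83-01, and 2 enzyme genes for the difference between genotypes. Under it *Cyp26a1* (adjusted p = 0.0176, limma), *Rdh11* (0.0111) and *Dhrs3* (0.0257) lost the deletion call, and *Dhrs3* lost the call with both (0.0310). The block follows the replicate number: *Smad2/3* cKO replicate 2 and *Smad2/3* cKO + A83-01 replicate 1, which share a label number and deviated together (r = 0.355), are in different blocks. Leaving out each sample gave 49 to 312 genes and 2 to 6 enzyme genes for A83-01 in controls, 280 to 992 and 4 to 9 for the deletion, 736 to 1580 and 7 to 8 for both, 0 to 4 genes for *Smad2/3* cKO + A83-01 vs. control + A83-01, and 39 to 77 and 0 to 3 for the difference between genotypes. In the comparisons with control + vehicle and the difference between genotypes, the lowest gene counts came without control + vehicle replicate 2, or replicate 1 for the deletion. The comparisons of *Smad2/3* cKO + A83-01 or control + A83-01 with *Smad2/3* cKO had 0 calls under every alternative run. In control + A83-01 vs. control + vehicle, *Rdh12* lost its call without any control + vehicle sample or control + A83-01 replicate 4 (adjusted p between 0.0122 and 0.0217). In *Smad2/3* cKO vs. control + vehicle, *Rdh10* lost it without control + vehicle replicate 1 or 2 (0.0153 and 0.0161) and *Rdh11* without any control + vehicle sample or *Smad2/3* cKO replicate 4 (0.0163 to 0.0269). *Adh1* gained a call for A83-01 in controls with quantile normalization (0.00883) and with all groups in 1 fit (0.00369). The cause was not tested.

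The sign changes were all in uncalled values, with adjusted p of at least 0.487. With the number range as a covariate *Aldh1a1* was −0.14 for A83-01 in *Smad2/3* cKO and −1.40 for the deletion under A83-01. With 1 sample left out, *Aldh1a1* ran from −0.24 to 0.75, *Aldh1a3* from −0.092 to 0.84, *Dhrs3* from −0.11 to 0.20 and *Adh1* from −0.33 to 0.90 in *Smad2/3* cKO + A83-01 vs. *Smad2/3* cKO. For *Smad2/3* cKO + A83-01 vs. control + A83-01 *Aldh1a2* ran from −0.034 to 0.64 and *Rdh11* from −0.066 to 0.35. For *Smad2/3* cKO vs. control + A83-01 *Aldh1a1* ran from −0.32 to 1.35, *Aldh1a2* from −0.67 to 0.088, *Cyp26a1* from −0.46 to 0.11, *Rdh10* from −0.024 to 0.53 and *Rdh12* from −0.066 to 0.90. Of 32 mean marker sums, those without the most abundant gene moved by more than 1 SD in 23. Precision is limited by 3 or 4 samples a group, and values of a few counts, such as *Adh1* in control + vehicle, depend on the pseudocount.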
